A study of Mus musculus with 8 samples.

Results

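The genes described here carry out and control the unfolded protein response and the integrated stress response, and they were measured in splenic type 1 conventional dendritic cells (cDC1). The set was given by name: 44 genes for folding, entry and degradation of proteins in the endoplasmic reticulum (ER), the sensors of both responses, their transcription factors and targets of ATF4. Of these, 42 had a named probe set on the array, out of 19505 genes with one, and each is represented by its probe set of highest mean. Pdia4 and Manf had no named probe set and were not analysed here. Ero1l and Ero1lb were matched through their current symbols, Ero1a and Ero1b. Expression was measured on 8 Affymetrix whole-transcript arrays, 4 of cDC1 sorted as TMRM/MG-high and 4 of cDC1 sorted as TMRM/MG-low, all from spleens of naive wild-type C57BL/6 mice. TMRM is a dye taken up by mitochondria with a high membrane potential. MG is not expanded in the labels, which also give no age or sex and do not say whether a replicate number stands for a mouse, a pool or a sort. The spread between arrays, on which all p-values rest, may therefore be technical in part.

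The ER is where membrane and secreted proteins fold. When folding lags, sensors in its membrane respond: IRE1 (gene Ern1), which splices the Xbp1 message, PERK (Eif2ak3), which phosphorylates the translation factor eIF2α, and ATF6, which is cut to release a transcription factor. PERK shares its substrate with GCN2 (Eif2ak4), which senses amino acid shortage, and HRI (Eif2ak1), which senses lack of heme and signals from stressed mitochondria; phosphorylated eIF2α slows translation and favours that of ATF4. Mouse cDC1 are known for IRE1 activity without added stress. The arrays report the total level of each transcript and not Xbp1 splicing, eIF2α phosphorylation or kinase activity.

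In TMRM/MG-high cDC1 9 of the 16 measured ER folding genes and the degradation gene Derl2 were higher, and transcripts of Ern1, Eif2ak3 and Eif2ak4 were lower. Of the 42 genes, 10 rose and 3 fell (limma, adjusted p under 0.05 over 22206 probe sets), which is 23.8% and 7.14% of them, against 5.28% and 2.96% of all probe sets tested. In 19 of the 42 every high array lay above every low array, and in 3 every high array lay below, against 9.7% and 6.37% of all probe sets. The log2 difference, high minus low, had a median of 0.17 over the 42 genes and 0.01 over all probe sets, and 71.4% of the genes had a positive difference, against 52.1% of all probe sets. The 42 genes were brighter (means of 10.52 to 10.73 per array) than the median tested probe set (8.11 to 8.16). The 1324 positive control probe sets, of like brightness, had a median of 10.44 in high and 10.28 in low arrays. The part of brightness in the difference was not tested. None of the 42 had a mean below the median of the negative controls in either fraction. A fit without the probe sets below that median in both fractions kept 16859. In it 10 and 3 of the 42 again rose and fell, against 8.07% and 4.38% of all those kept. The number of falls was 2 or 3 on leaving out any 1 array. The number of rises was 0 without high replicate 2, high replicate 3 or low replicate 1, 1 without low replicate 4, 2 without high replicate 4, 3 without low replicate 2, 8 without high replicate 1 and 13 without low replicate 3. In the same omissions 0.824% to 7.57% of all probe sets rose and 0.982% to 3.57% fell. After a further quantile normalization of the tested probe sets, 5 rose and 3 fell, against 3.84% and 3.86% of all probe sets.

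**Figure D1:**
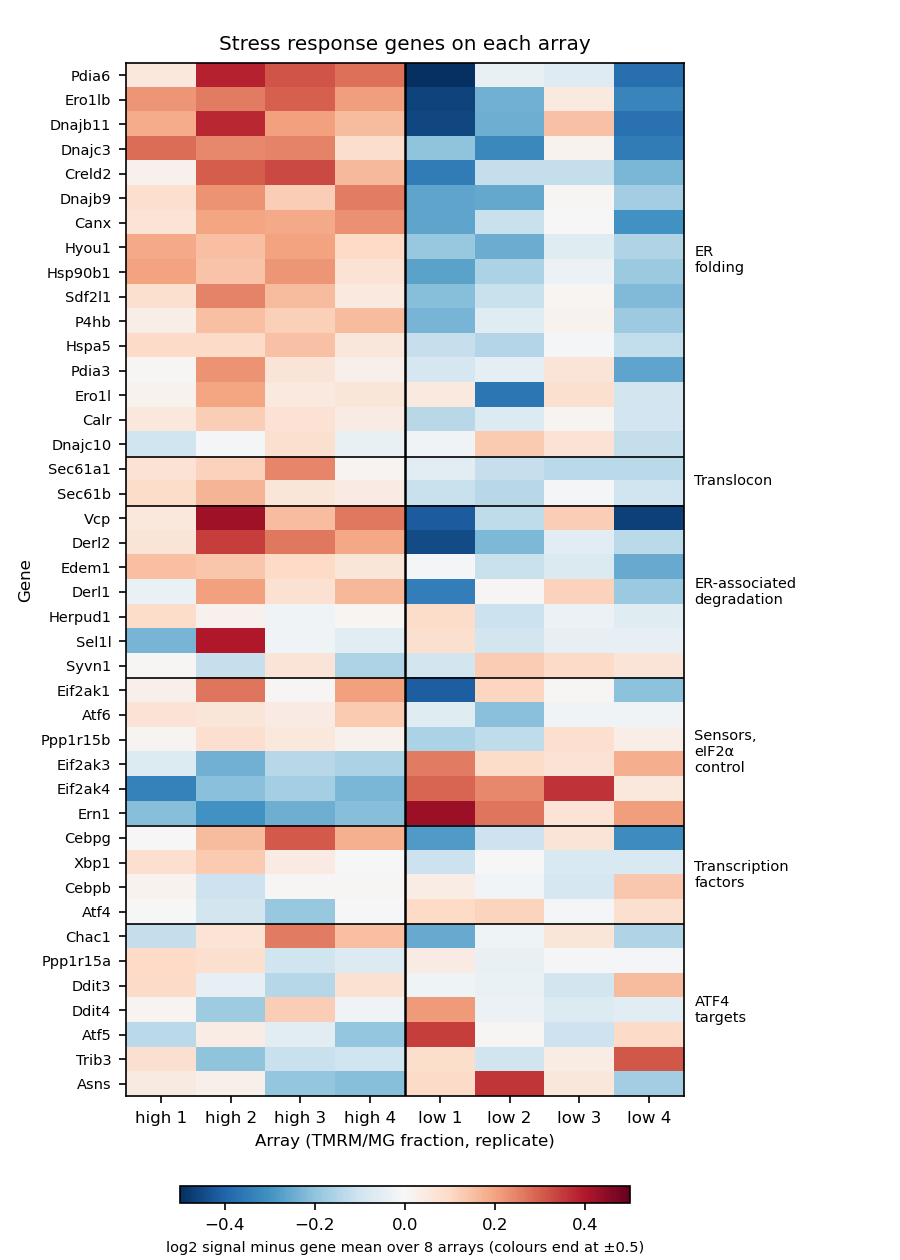
Heat map of the 42 measured genes (rows, grouped by role) on the 8 arrays (columns, TMRM/MG-high left of TMRM/MG-low). Colour is the log2 signal minus the gene's mean over the arrays, with colours ending at ±0.5. Most ER folding genes are above their mean on all 4 high arrays, while Ern1, Eif2ak3 and Eif2ak4 are above theirs on all 4 low arrays.

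Chaperones and folding enzymes formed the largest group. Of 16 measured, 9 rose and 0 fell, and 15 had a positive difference, with a median of 0.32. Among all probe sets 5.28% rose, 2.96% fell and 52.1% had a positive difference. The mean log2 signal of the 16 genes was 11.16, 11.27, 11.24 and 11.18 in high replicates 1 to 4, against 10.83, 10.92, 11.08 and 10.84 in low replicates 1 to 4. After quantile normalization 4 of the 16 rose (Dnajc3, Pdia6, Ero1lb and Creld2). Low replicate 3 lay nearest to the high arrays, and it was the low array nearest to the high fraction in 13 of the 16 genes. In the array values of the 10 genes that rose, low replicate 3 was the low array nearest to the high fraction in 8.

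**Figure D2:**
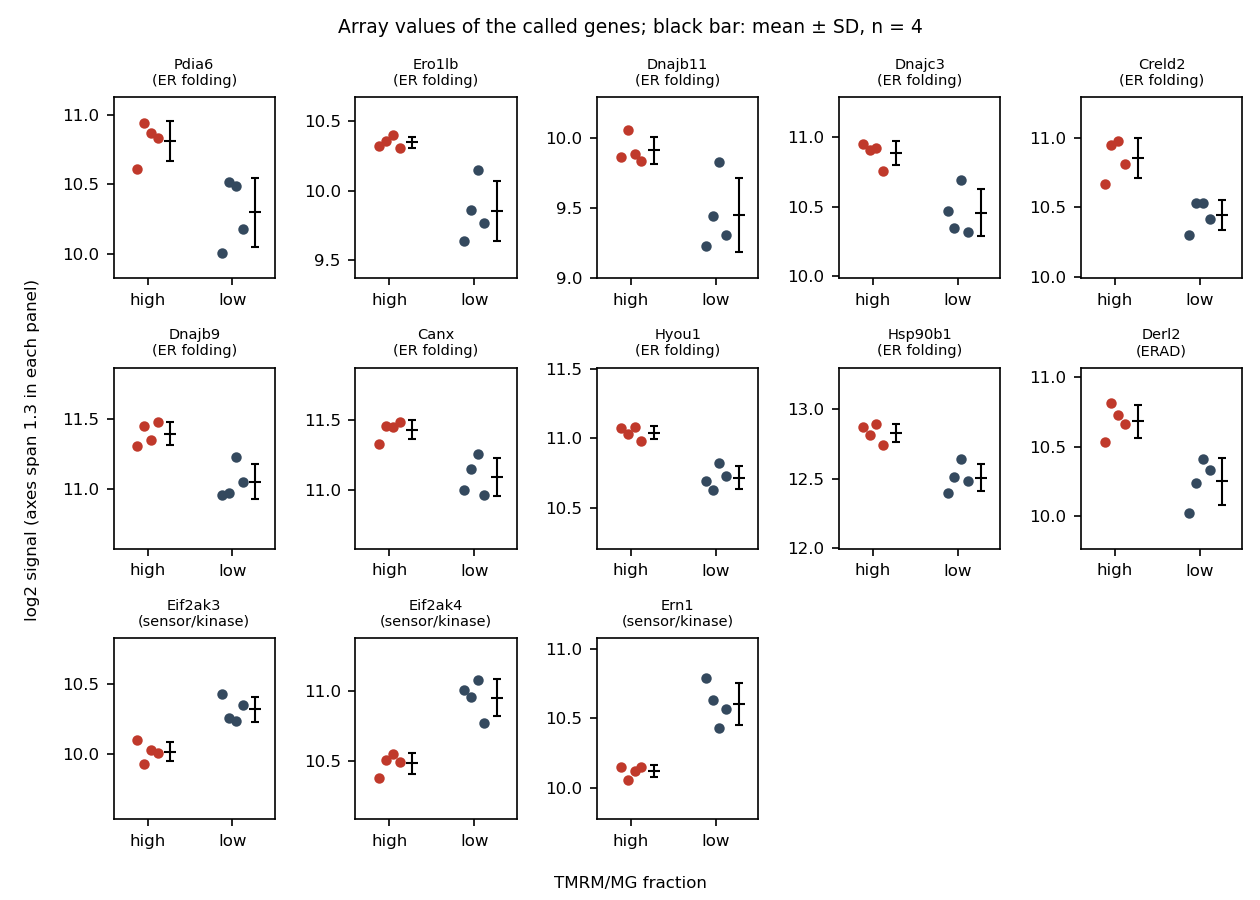
Log2 signal on each array for the 13 genes called, TMRM/MG-high left (red) and TMRM/MG-low right (dark), with the mean and SD of the 4 arrays beside each (ERAD, ER-associated degradation). The fractions do not overlap in any panel; Ern1, Eif2ak3 and Eif2ak4 are lower in the high fraction and the other 10 are higher.

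Disulfide bonds are made in the ER by isomerases such as P4hb, Pdia3 and Pdia6, which the oxidases of the Ero1 family recharge. Pdia6 measured 10.61, 10.94, 10.87 and 10.83 in high cells, against 10.01, 10.52, 10.49 and 10.18 in low cells, and rose by 0.51 (SE 0.12, limma adjusted p = 0.0288), the largest difference of the 42. Ero1lb measured 10.32, 10.36, 10.40 and 10.31 in high cells, against 9.64, 9.86, 10.15 and 9.77 in low cells, a rise of 0.49 (SE 0.10, limma adjusted p = 0.0194). The high arrays of Ero1lb lay within 0.1 of each other (SD 0.04), while the low arrays spread more (SD 0.21). Its relative Ero1l did not pass the test, at 9.63 ± 0.08 in high and 9.47 ± 0.20 in low cells (SD, n = 4 each; 95% interval of the difference -0.07 to 0.39). P4hb measured 12.23, 12.35, 12.32 and 12.36 in high cells and 11.97, 12.14, 12.22 and 12.02 in low cells. Those groups did not overlap, yet the difference of 0.23 was not called (limma adjusted p = 0.113). Pdia3, which works with the lectin chaperones, overlapped between the fractions (0.16, limma adjusted p = 0.298).

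The J-domain proteins bring clients to the HSP70 chaperone BiP (Hspa5) and drive its ATP cycle. Of the 4 in the set 3 rose, against 5.28% of all probe sets. Outside the set, the J-domain gene Dnajc1 fell (-0.38, limma adjusted p = 0.0378) and Sec63 rose (0.42, limma adjusted p = 0.0176). Dnajc3, also known in mouse as an inhibitor of eIF2α kinases, measured 10.95, 10.91, 10.92 and 10.76 in high cells, against 10.47, 10.35, 10.69 and 10.32 in low cells (0.43, SE 0.098, limma adjusted p = 0.0251). Dnajb11 measured 9.87, 10.06, 9.89 and 9.84 in high cells, against 9.23, 9.44, 9.83 and 9.31 in low cells (0.46, SE 0.12, limma adjusted p = 0.04). Low replicate 3 of Dnajb11 reached almost to the lowest high array, and the other 3 low arrays were clearly apart. Dnajb9, a classic target of IRE1 and XBP1, measured 11.31, 11.45, 11.35 and 11.48 in high cells, against 10.96, 10.97, 11.23 and 11.05 in low cells (0.34, SE 0.089, limma adjusted p = 0.0368). The J-domain disulfide reductase Dnajc10 was the 1 of these 4 not called, at 10.96 ± 0.073 in high and 11.00 ± 0.11 in low cells (SD, n = 4 each; limma adjusted p = 0.844).

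The BiP gene itself was not called. Hspa5 measured 12.61, 12.61, 12.66 and 12.57 in high cells, against 12.40, 12.37, 12.51 and 12.39 in low cells, a difference of 0.20 that was not called (SE 0.076, limma adjusted p = 0.132), although the fractions did not overlap. Its nucleotide exchange factor Hyou1 measured 11.07, 11.03, 11.08 and 10.98 in high cells, against 10.69, 10.63, 10.82 and 10.73 in low cells, and rose (0.32, SE 0.078, limma adjusted p = 0.0297). Whether these differences differ from each other was not tested. Sdf2l1, which holds BiP clients in solution together with Dnajb11, measured 11.20, 11.37, 11.28 and 11.17 in high cells and 10.91, 11.01, 11.13 and 10.90 in low cells (0.27, limma adjusted p = 0.0805).

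The ER form of HSP90, Hsp90b1, is needed for folding of Toll-like receptors and integrins. It measured 12.87, 12.81, 12.89 and 12.74 in high cells, against 12.40, 12.51, 12.64 and 12.48 in low cells, and rose by 0.32 (SE 0.083, limma adjusted p = 0.0382). Of the lectin chaperones, which hold glycoproteins including MHC class I heavy chains, the membrane-bound Canx measured 11.33, 11.46, 11.45 and 11.49 in high cells, against 11.00, 11.15, 11.26 and 10.96 in low cells, and rose by 0.34 (SE 0.089, limma adjusted p = 0.0385). Its soluble partner Calr, at 11.60 ± 0.036 in high and 11.45 ± 0.063 in low cells (SD, n = 4 each), did not pass (limma adjusted p = 0.262), though its fractions did not overlap either. Creld2, an ER protein induced by ER stress, measured 10.67, 10.95, 10.98 and 10.81 in high cells, against 10.30, 10.53, 10.53 and 10.42 in low cells, and rose by 0.41 (SE 0.096, limma adjusted p = 0.0269).

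Promoters are shown for the folding genes because many of them hold the ER stress response element (ERSE), the site through which cleaved ATF6 and spliced XBP1 are known to act. RefSeq promoter sequences (GRCm38.p6, 250 bases before to 50 after the start) were matched for 37 of the 42 genes, with 3 genes having 2 promoters. Atf6, Hyou1, Ppp1r15b, Derl1 and Sec61a1 were not among them. The ERSE was searched as CCAAT, 9 bases of any kind and CCACG, on both strands. It was found in 9 of the 37 genes, of which 8 are folding genes and the other is Syvn1, and in 0.119% of all 32851 promoters in the table. The element was defined from promoters of ER chaperone genes, so this is a description of the set and not independent evidence. The windows below run 5′ to 3′ on the gene's strand and end before the start of transcription. Capitals mark the CCAAT and CCACG boxes, which read CGTGG and ATTGG where the match is on the opposite strand.
Pdia6, plus strand, chr12:17266476-17266524: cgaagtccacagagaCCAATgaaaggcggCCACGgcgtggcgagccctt
Ero1lb, plus strand, chr13:12565667-12565715: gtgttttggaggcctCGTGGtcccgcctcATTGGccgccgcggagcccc
Dnajc3, plus strand, chr14:118937812-118937860: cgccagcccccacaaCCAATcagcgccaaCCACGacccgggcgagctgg
Creld2, plus strand, chr15:88819505-88819553: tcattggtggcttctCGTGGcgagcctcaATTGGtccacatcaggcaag
Canx, minus strand, chr11:50325785-50325833: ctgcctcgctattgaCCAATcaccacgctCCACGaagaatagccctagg
Hsp90b1, minus strand, chr10:86705518-86705671: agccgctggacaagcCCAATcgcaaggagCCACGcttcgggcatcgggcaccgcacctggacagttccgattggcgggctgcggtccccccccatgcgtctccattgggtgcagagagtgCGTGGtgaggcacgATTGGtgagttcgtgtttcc
Hspa5, plus strand, chr2:34772010-34772058: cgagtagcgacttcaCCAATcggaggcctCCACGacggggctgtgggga
Calr, minus strand, chr8:84847060-84847108: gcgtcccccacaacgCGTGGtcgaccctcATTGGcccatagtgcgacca
Syvn1, plus strand, chr19:6046517-6046565: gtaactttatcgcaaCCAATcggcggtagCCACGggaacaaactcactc

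The first 6 of these genes rose and the last 3 did not pass the test. Hsp90b1 held 2 matches, and the others 1 each. Among folding genes with a promoter in the table, 6 of the 8 with an ERSE rose (differences of 0.14 to 0.51, median 0.38), against 2 of the 7 without (differences of -0.03 to 0.46, median 0.23). The folding genes Dnajb9 and Dnajb11 and the degradation gene Derl2 rose without a match. Of the 3 genes that fell, all had a promoter in the table and 0 held an ERSE. With the ERSE in 0.119% of all promoters, 0 of 3 is near the share over all promoters. Whether a match goes with the size of a difference was not tested. The box CCACG alone, which every ERSE match also contains, was found in 29 of the 37 genes and in 32.8% of all promoters. The unfolded protein response element TGACGTGG was found in 1 of the 37 genes, Vcp, and in 0.676% of all promoters.

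Entry of proteins into the ER runs through the Sec61 channel. Sec61a1, its pore, was 12.22 ± 0.099 in high and 12.00 ± 0.038 in low cells, and Sec61b, a small subunit, was 10.92 ± 0.057 in high and 10.74 ± 0.054 in low cells (SD, n = 4 each). Neither was called by limma (adjusted p = 0.116 and 0.164; both had an unadjusted p under 0.05), and in both the fractions did not overlap.

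ER-associated degradation returns misfolded proteins to the cytosol for the proteasome. Here 1 of 7 genes rose and 0 fell, against 5.28% and 2.96% of all probe sets. Derl2, which belongs to a family of membrane proteins that help clients leave the ER, measured 10.53, 10.81, 10.73 and 10.66 in high cells, against 10.02, 10.24, 10.41 and 10.33 in low cells (0.43, SE 0.10, limma adjusted p = 0.0276). Vcp, the ATPase that extracts clients from the membrane, measured 10.74, 11.11, 10.84 and 10.95 in high cells, against 10.27, 10.56, 10.81 and 10.22 in low cells. Its low replicate 3 lay among the high arrays, and the difference of 0.45 (SE 0.13) did not pass (limma adjusted p = 0.061). Edem1, which recognises trimmed glycans, did not overlap between the fractions (11.11 ± 0.039 in high and 10.89 ± 0.10 in low cells; limma adjusted p = 0.118), and Derl1 did (10.94 ± 0.11 and 10.73 ± 0.20; limma adjusted p = 0.258; SD, n = 4 each). The ubiquitin ligase Syvn1 and its partners Sel1l and Herpud1 stayed within the spread of the arrays, with differences of -0.10 for Syvn1, 0.04 for Sel1l and 0.05 for Herpud1 (limma adjusted p = 0.529, 0.866 and 0.747). The Herpud1 difference turned negative after quantile normalization of the tested probe sets.

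Of 6 sensors and regulators of eIF2α, 3 fell and 0 rose, against 2.96% and 5.28% of all probe sets. The genes that fell were the IRE1 gene Ern1 and the kinase genes Eif2ak4 and Eif2ak3, and the other 3 had positive differences that did not pass. Ern1 measured 10.15, 10.06, 10.12 and 10.15 in high cells, against 10.79, 10.63, 10.43 and 10.57 in low cells. All 4 high arrays lay together, below the lowest low array, and Ern1 fell by 0.49 (SE 0.09, limma adjusted p = 0.0123, a fold of 0.714). Eif2ak4, the GCN2 gene, measured 10.38, 10.51, 10.55 and 10.49 in high cells, against 11.01, 10.96, 11.08 and 10.77 in low cells, and fell by 0.47 (SE 0.089, limma adjusted p = 0.0129, a fold of 0.72). Eif2ak3, the PERK gene, measured 10.10, 9.93, 10.03 and 10.01 in high cells, against 10.43, 10.26, 10.24 and 10.35 in low cells, and fell by 0.30 (SE 0.082, limma adjusted p = 0.0428, a fold of 0.81). Ern1 and Eif2ak4 were the members that kept their call on leaving out each of the 8 arrays (highest limma adjusted p of 0.0451 and 0.0412). The Eif2ak3 call held without high replicate 1 or low replicate 3 and was lost in the other 6 omissions (highest 0.128), and with the replicate number as a block.

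The remaining sensors and regulators were not called. Atf6, the sensor that becomes a transcription factor, measured 12.20, 12.19, 12.17 and 12.26 in high cells, against 12.07, 11.92, 12.11 and 12.11 in low cells. Its fractions did not overlap, but the difference of 0.15 did not pass (SE 0.079, limma adjusted p = 0.249). The HRI gene Eif2ak1 was 10.13 ± 0.13 in high and 9.88 ± 0.23 in low cells (SD, n = 4 each; limma adjusted p = 0.209), so its difference was positive where those of Eif2ak3 and Eif2ak4 were negative. Ppp1r15b, a subunit of the phosphatase that resets eIF2α, differed by 0.08 (95% interval -0.10 to 0.26, limma adjusted p = 0.58).

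**Figure D3:**
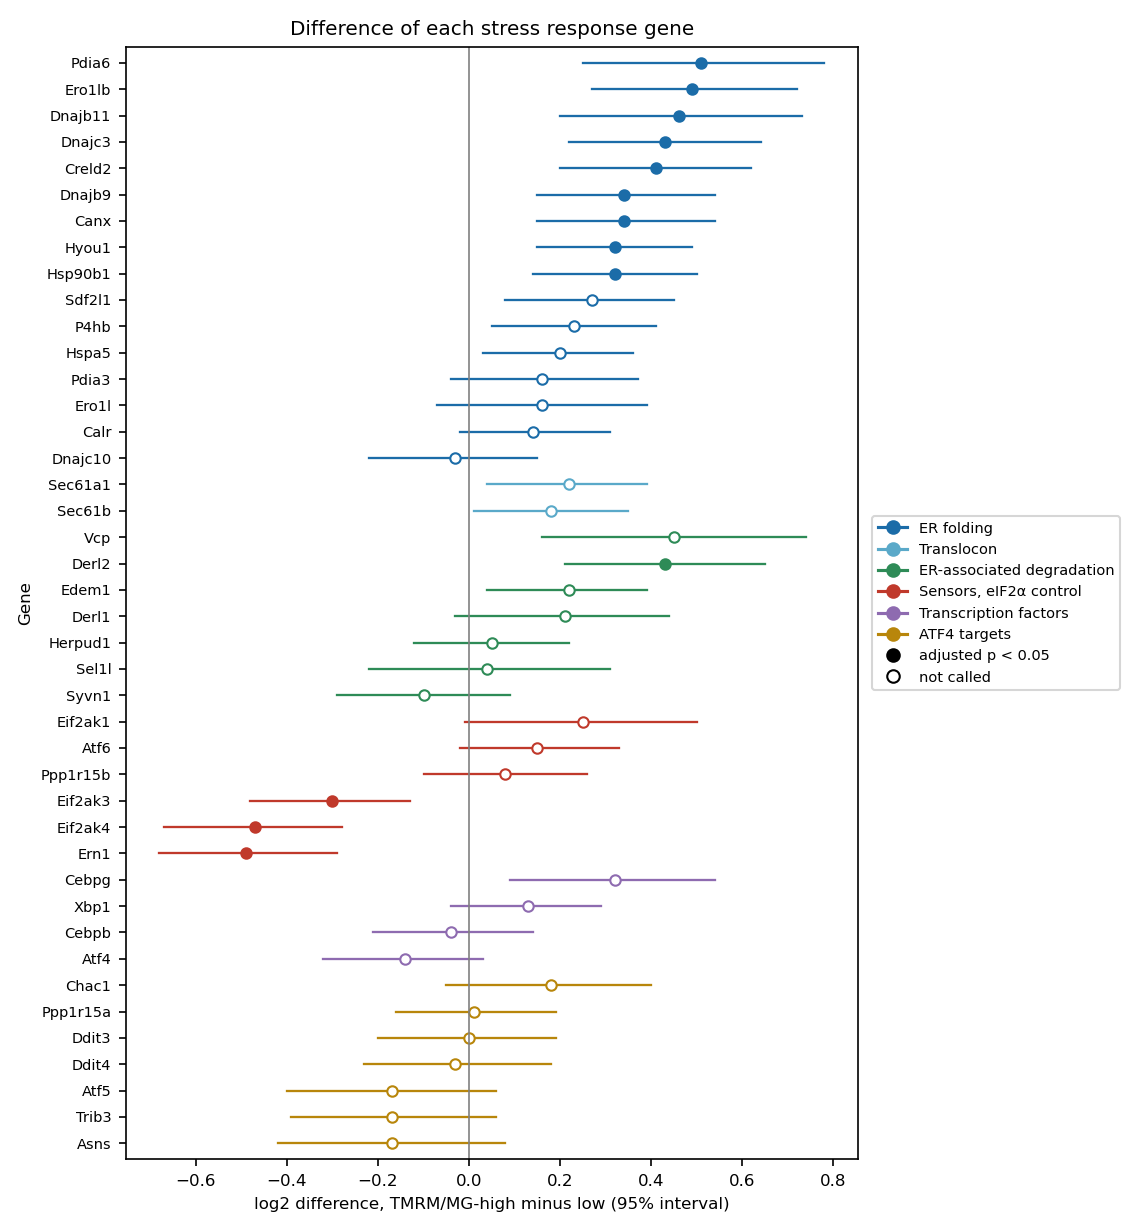
Log2 difference, TMRM/MG-high minus TMRM/MG-low, of the 42 genes with its 95% interval from limma, coloured by role; filled points are called at an adjusted p under 0.05. The 9 called folding genes and Derl2 lie right of 0, Ern1, Eif2ak3 and Eif2ak4 lie left of 0, and the ATF4 targets lie between -0.17 and 0.18.

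None of the 4 transcription factors was called, and 1 of them, Cebpg, had an unadjusted p under 0.05. Xbp1, whose spliced form activates folding and degradation genes, measured 11.77, 11.82, 11.73 and 11.69 in high cells, against 11.58, 11.69, 11.61 and 11.61 in low cells (0.13, SE 0.076, limma adjusted p = 0.319). The lowest high array and the highest low array of Xbp1 were nearly level. Atf4 measured 12.42, 12.33, 12.23 and 12.42 in high cells, against 12.52, 12.53, 12.41 and 12.50 in low cells (-0.14, SE 0.081, limma adjusted p = 0.289), and its fractions overlapped. Cebpg, a partner of ATF4 on DNA, measured 10.27, 10.43, 10.58 and 10.45 in high cells and 9.99, 10.17, 10.34 and 9.96 in low cells. Low replicate 3 again lay among the high arrays, and the difference of 0.32 (SE 0.10) was not called (limma adjusted p = 0.0831). It was called with an intensity trend and robust fit, with array weights and without low replicate 3. Cebpb differed by -0.04 (limma adjusted p = 0.825).

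Targets of ATF4 showed no call in either direction: 0 of 7 passed, 0 had an unadjusted p under 0.05, and 0 were called under any alternative fit. With 5.28% of all probe sets called higher and 2.96% lower, 0 of 7 is near the share over the whole array and is not a result about these genes. Their median difference was -0.03, and in all 7 the fractions overlapped. Ddit3, which encodes the pro-apoptotic factor CHOP, measured 10.63, 10.49, 10.39 and 10.61 in high cells, against 10.51, 10.50, 10.44 and 10.69 in low cells, and the 95% interval of its difference ran from -0.20 to 0.19. The phosphatase subunit Ppp1r15a, which ends eIF2α phosphorylation, was at 11.66 ± 0.10 in high and 11.65 ± 0.034 in low cells (interval -0.16 to 0.19), and the mTORC1 inhibitor Ddit4 at 8.19 ± 0.12 in high and 8.22 ± 0.13 in low cells (interval -0.23 to 0.18; SD, n = 4 each). The intervals of the other 4 were wider. They ran from -0.40 to 0.06 for the transcription factor Atf5, from -0.39 to 0.06 for the pseudokinase Trib3, from -0.42 to 0.08 for asparagine synthetase, Asns, and from -0.05 to 0.40 for Chac1, which breaks down glutathione. A p that misses the threshold does not show that the fractions are equal.

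ATF4 is known to act through C/EBP-ATF response elements, searched here by the core TGATGNAA on both strands. It was found in 3 of the 7 ATF4 targets (Asns, Chac1 and Trib3), in 4 of all 37 member genes and in 3.97% of all promoters. These genes were listed as ATF4 targets and the core is a site of ATF4. The count therefore describes the list and is not independent evidence. The matches of Asns and Chac1 before the start are shown to set these uncalled genes beside the folding genes above, with the core in capitals. The Chac1 match is on the opposite strand, and that of Trib3 lies after the start.
Asns, minus strand, chr6:7693210-7693252: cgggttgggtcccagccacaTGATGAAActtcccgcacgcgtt
Chac1, plus strand, chr2:119351029-119351076: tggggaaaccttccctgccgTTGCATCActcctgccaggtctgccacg

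Other genes of the same pathways, listed by textbook role, gave the wider picture. Of 129 measured, 27 rose and 1 fell, which is 20.9% and 0.775%, against 5.28% and 2.96% of all probe sets. Their median difference was 0.19, and 79.8% had a positive difference, against 52.1% of all probe sets. The lists for folding and entry held most of the rises. Other folding genes had 9 rises and 1 fall among 29 (median 0.21). They included the disulfide isomerase genes Txndc5 (0.54, SE 0.094, limma adjusted p = 0.0104) and Tmx3 (0.38), the cargo receptor gene Tmed10 (0.33) and Cnpy2 (0.45), and the fall was in the J-domain gene Dnajc1 (-0.38, SE 0.099, limma adjusted p = 0.0378).

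Genes for targeting, translocation, signal peptide removal and N-glycosylation had 10 rises and 0 falls among 28 (median 0.29). The rises are 35.7%, against 5.28% of all probe sets. In 19 of the 28 (67.9%) every high array was above every low array, against 9.7% of all probe sets. The signal peptidase genes Sec11a and Spcs3 both rose by 0.61 (SE 0.099 and 0.12, limma adjusted p = 0.00852 and 0.0135). Srp68 of the signal recognition particle rose by 0.47, and Sec63, a J-domain partner of the channel, by 0.42. Other degradation genes had 2 rises and 0 falls among 21 (median 0.17), Selenok (0.37) and Ubxn4 (0.30), both ER membrane proteins of the VCP pathway. The rises are 9.52% of that list, against 5.28% of all probe sets.

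On the sensing side, 4 of 19 further genes rose (21.1%, against 5.28% of all probe sets) and 0 fell (median 0.19). These were Eif2b3 (0.81, SE 0.17, with overlapping fractions) and Eif2b1 (0.32), subunits of the exchange factor that phosphorylated eIF2α inhibits, Eif2s3x (0.33), a subunit of eIF2 with a near-identical copy on the Y chromosome, and the ER-bound transcription factor Creb3l2 (0.41). Among 32 further ATF4-linked genes 2 rose and 0 fell (median 0.13). The rises are 6.25% of the list, near the 5.28% of all probe sets, so the count is not a result about these genes. The 2 were the glycyl-tRNA synthetase gene Gars (0.37, SE 0.078, limma adjusted p = 0.0188) and the serine synthesis gene Psat1 (0.53, SE 0.11, limma adjusted p = 0.0192). Cytosolic heat shock genes, which answer to HSF1 and not to the ER sensors, had 1 rise, Ahsa1 (0.31), and 1 fall, Hspa1b (-0.57, SE 0.15, limma adjusted p = 0.0382), among 14 (median 0.04). Each is 7.14% of that list, against 5.28% of all probe sets called higher and 2.96% lower. Hspa1b shares most of its sequence with Hspa1a, so the signals of these copies may not be separable. After quantile normalization 1 of the 21 degradation genes rose, and 0 heat shock genes rose and 2 fell, with a median of -0.01. In that fit 3.84% of all probe sets rose and 3.86% fell.

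**Figure D4:**
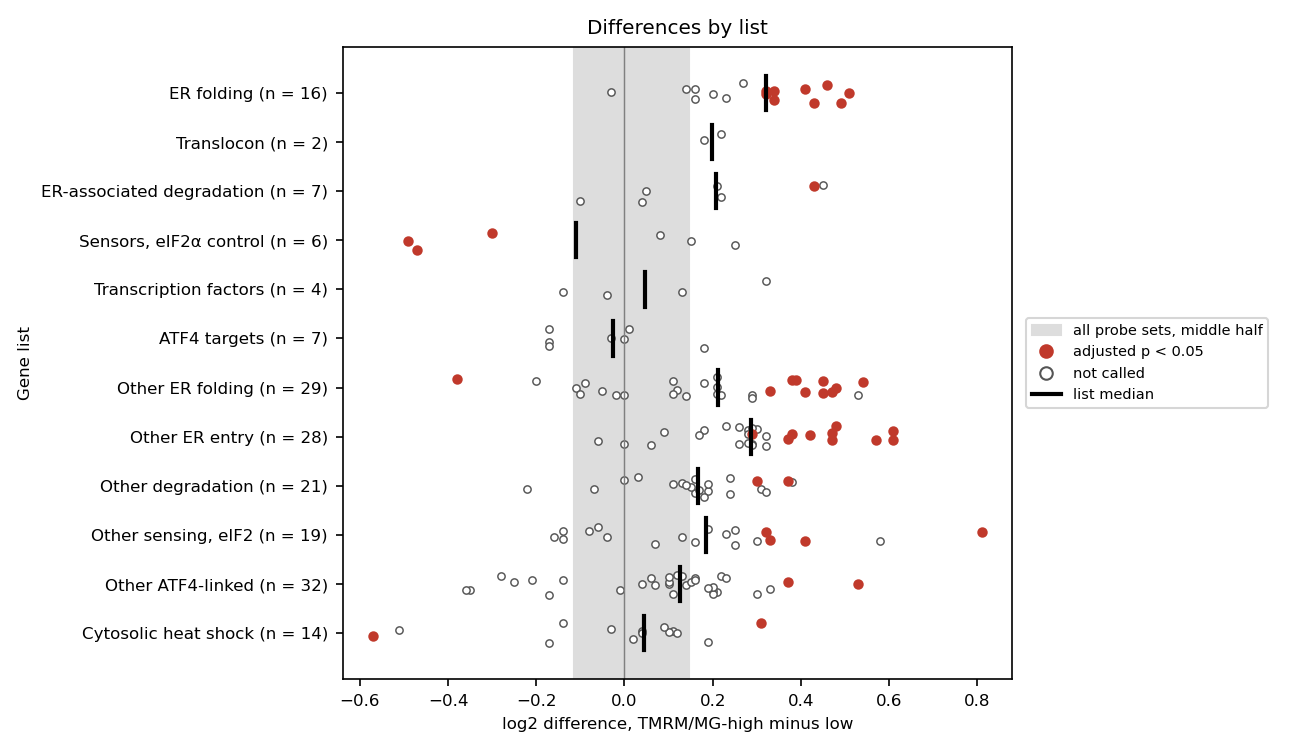
Log2 difference, TMRM/MG-high minus TMRM/MG-low, of each gene in the 6 member groups and the 6 further lists (rows). Points are genes, filled where called, bars are list medians, and the grey band holds the middle 50% of all probe sets. Medians are 0.32 for ER folding and 0.29 for other ER entry genes, against -0.03 for the ATF4 targets.

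Markers of other cell types moved between the same fractions. The mean signal of 13 plasmacytoid dendritic cell markers was 9.95 to 10.38 in high and 9.23 to 9.41 in low arrays, and 11 of the 13 rose. That of 8 T and NK cell markers was 8.78 to 9.41 in high and 9.15 to 10.07 in low arrays (3 of 8 fell), and that of 6 neutrophil markers was 8.50 to 9.38 in high and 9.20 to 10.19 in low arrays (1 of 6 fell). All 8 and all 6 had negative differences, with medians of -0.77 and -0.65. An unadjusted limma p was under 0.05 for 7 of the 8 and 3 of the 6. Plasma cell markers had 0 of 7 called, at 8.41 to 8.66 in high and 8.35 to 8.63 in low arrays. Tnfrsf17 was below the negative control median in both fractions. With 5.28% of all probe sets called higher and 2.96% lower, 0 of 7 is near the share over the whole array. No B cell, cDC2 or red pulp macrophage marker was called either (0 of 6, 0 of 8 and 0 of 8; unadjusted p under 0.05 for 0, 2 and 0 of them), and the cDC2 marker Mgl2 was below that median as well. The 10 cDC1 markers were all above that median, at 12.00 to 12.15 in high and 11.92 to 12.20 in low arrays, with 0 called and 3 at an unadjusted p under 0.05. Fewer cells of a type and less RNA per cell cannot be told apart in such samples. The mean of 8 spike-in controls, RNA that is not from the cells, also differed, at 8.88 to 9.43 in high and 9.79 to 10.23 in low arrays. The median of 1324 positive control probe sets was 10.38 to 10.49 in high and 10.21 to 10.37 in low arrays. The median of all tested probe sets was 8.11 to 8.16 in both fractions. Every high array was below every low array in the spike-in mean, so a fit with it has little power to tell it apart from the fraction. With the spike-in mean as a covariate limma called 0 of the 42 genes and 0 of all probe sets. In that fit 1 of the 42, Eif2ak4, had an unadjusted p under 0.05 (0.0267), against 472 higher and 568 lower among all probe sets. The part of these markers and controls in the differences above was otherwise not tested.

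**Figure D5:**
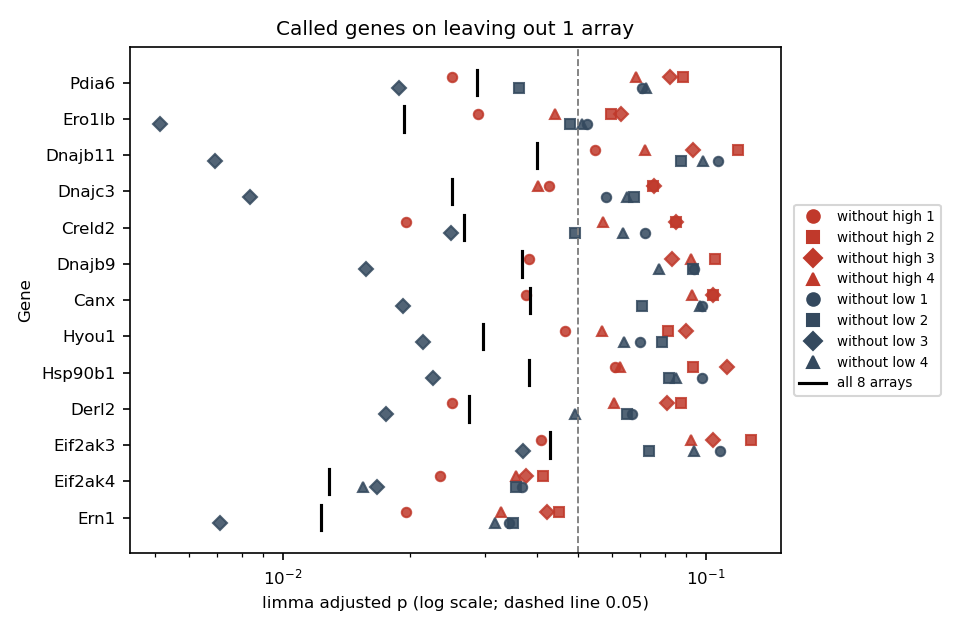
Limma adjusted p (log axis) of the 13 called genes with all 8 arrays (black bars) and on leaving out each array (points; red for high, dark for low, shape for replicate); the dashed line is 0.05. Ern1 and Eif2ak4 stay left of the line in all 8 omissions, and the other 11 genes cross it in at least 4.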

How the data were processed

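The values are the deposited log2 signals of 8 arrays, made by the authors with RMA in Affymetrix Expression Console 1.1, per the submitters' processing notes. RMA gives all arrays a common distribution, so a shift of most transcripts together is removed. No build for the probe sets is named in these sources. Of 28846 probe sets, 6640 controls were left out. Of the 22206 tested, the platform annotation gave 1 symbol for 19572, several for 0 and none for 2634, and all 19572 matched RefSeq by Entrez ID.

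The contrast TMRM/MG-high minus TMRM/MG-low was fitted with limma 3.58.1 (lmFit, then eBayes) under R 4.3.3. The fit was two-sided, without a block, with Benjamini-Hochberg adjustment over all probe sets tested. The procedure was run on simulated data whose noise was drawn independently for each probe set. That simulation held no shift of many genes together on an array. The number of arrays limits the precision. The genes, lists, markers and alternatives were chosen with earlier results of these data known. Array values are given for every called gene, for Ern1, Atf6, Eif2ak3, Eif2ak4, Xbp1, Atf4, Hspa5 and Ddit3, and for the 4 uncalled genes with the smallest p (Vcp, Sdf2l1, Cebpg, P4hb); of each further list up to 4 called genes with the smallest p are named. Dnajc1 was named after its value was seen. A planned look at the last residues of the proteins was not made, since no protein sequences were used here. Alternatives are given in the closing section. Figures were drawn with matplotlib 3.10.9.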

Additional observations from a re-analysis of the deposited data

Results flagged for a closer look

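In 3 of the 84 groups of 4 arrays examined (42 genes, 2 fractions), 1 array stood apart from the other 3 by more than Dixon's 95% critical value allows; chance alone flags about 1 in 20 groups. Hspa5 was at 12.51 in low replicate 3 and at 12.37 to 12.40 in the other low arrays. Cebpb was at 8.63 in high replicate 2 and at 8.74 to 8.75 in the other high arrays. Ddit4 was at 8.42 in low replicate 1 and at 8.14 to 8.18 in the other low arrays. None of these 3 genes was called.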

How the results depend on the processing

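Of the 13 called genes, all kept their direction under each alternative except Derl2, which was at -0.0028 with the spike-in covariate. Rises numbered 5 after quantile normalization of the tested probe sets, where 3.84% of all probe sets rose. They numbered 17 when the fit used a robust variance trend on intensity, where 8.78% rose, against 10 and 5.28% in the main fit. Rises and falls were both 0 with the spike-in covariate, where 0 of all probe sets were called, and at an adjusted p under 0.01. On leaving out 1 array there were 0 to 13 rises, against 0.824% to 7.57% of all probe sets. With the spike-in covariate, which itself separates the fractions, the median of the folding genes was 0.12 and that of the degradation genes -0.0028. After quantile normalization the medians of the translocon and of the sensors were 0.13 and -0.19. The causes were not tested. No other median moved by more than the spread between arrays. Over all probe sets, deviations of same-numbered high and low arrays had r = 0.271, 0.0548, 0.0152 and 0.0391. For differently numbered arrays r ran from -0.294 to 0.168. Some genes, such as Itgae and S100a8, had the same order of replicates in both fractions, and others did not. The main fit took the arrays as unpaired, but these r do not exclude that a number marks a shared source. With the replicate block 8 genes rose and 2 fell, against 5.52% and 2.93% of all probe sets. Hsp90b1, Dnajb9 and Eif2ak3 lost their calls with it.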

Other observations

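Low replicate 3 was the low array nearest to the high fraction in 28 of the 42 genes and in 8 of the 10 that rose, and on the high side replicate 1 was nearest to the low fraction in 20 and replicate 4 in 13 of the 42. Ddit3 had a second probe set, at 9.89 ± 0.021 in high and 9.88 ± 0.12 in low cells (SD, n = 4 each; limma adjusted p = 0.945). The degradation gene Herpud1 held a TGATGNAA match at -112 to -105 from its start, on the opposite strand, and Vcp held TGACGTGG at -114 to -107.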
